A study of Mus musculus with 15 samples.

Results

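Small RNA libraries of mouse pancreatic acini held 7 mature miRNAs that are textbook markers of blood, muscle and liver, tissues that were not sampled. They were chosen by name from the table of mature miRNAs: the red-cell miRNAs mmu-miR-451a, mmu-miR-144-3p, mmu-miR-486a-5p and mmu-miR-486b-5p, the striated-muscle miRNAs mmu-miR-1a-3p and mmu-miR-133a-3p, and the liver miRNA mmu-miR-122-5p. All 7 were among the 1915 rows of the table and among the 867 rows with a count in at least 1 library. The 15 libraries formed 5 groups of 3: acini given caerulein at 100 nM, caerulein at 100 pM, taurolithocholic acid 3-sulfate (TLC-S) at 250 uM or TLC-S at 62.5 uM, and control acini given no agent. Every group came from C57BL/6 mice aged 7 to 8 weeks. Caerulein is a peptide that stimulates acinar cells through the cholecystokinin receptor, and its 100 pM dose is named physiological in the design; TLC-S is a bile acid derivative that injures these cells. RNA was pooled over acinar preparations, and which preparations went into which library is not told, so the p-values here measure only how far these libraries differ from each other, which may be technical variation.

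A miRNA is cut from a hairpin in a longer transcript and guides a silencing complex to messenger RNAs that match its seed, bases 2 to 8. miR-451a and miR-144 are made from 1 transcript that the factor GATA1 switches on in red-cell precursors, and miR-451a is among the most abundant miRNAs of mature red cells. Both miR-486 rows belong to a locus inside the ankyrin gene Ank1, which is active in red cells and also in skeletal and heart muscle, so miR-486 marks both tissues. miR-1a and miR-133a are transcribed together in heart and skeletal muscle, and miR-122 is the dominant miRNA of hepatocytes. Pancreatic acini are prepared by digesting a gland that is rich in blood vessels, so blood and other tissue can come with them.

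The sequences of the red-cell pair are shown because both products come from neighbouring hairpins, so their ratio can be followed within a library. They are given 5′ to 3′ from RefSeq for GRCm38.p6, which listed mature sequences for 2 of the 7 miRNAs, with the seed in capitals.
mmu-miR-451a: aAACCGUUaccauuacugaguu
mmu-miR-144-3p: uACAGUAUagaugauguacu
The seeds differ. In the hairpins below, capitals mark the mature products.
Mir144: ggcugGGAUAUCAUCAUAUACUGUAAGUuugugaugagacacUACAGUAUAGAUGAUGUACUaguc
Mir451a: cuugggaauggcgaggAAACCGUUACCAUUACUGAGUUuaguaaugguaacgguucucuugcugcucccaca
The Mir144 hairpin gives an arm on each side of its loop, while Mir451a has a single product, which is known to be made without Dicer. Mir144 lies at chr11:78073005-78073070 and Mir451a at chr11:78073170-78073241, both on the plus strand and 99 bases apart; no GENCODE M21 gene overlaps Mir144, and only Mir451b, on the other strand, overlaps Mir451a.

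Together these miRNAs were a minute part of the libraries. Total counts ran from 535473 to 5087728 per library, and every count interval below covers counting error only. On average miR-451a held 0.00852% ± 0.00298 of all miRNA counts (SD, n = 15 libraries) and ranked 150th by mean share. miR-486b-5p held 0.00293% ± 0.000781, miR-486a-5p 0.00277% ± 0.000804 and miR-1a-3p 0.00181% ± 0.00106. miR-122-5p held 0.00106% ± 0.000605, miR-144-3p 0.000749% ± 0.000361 and miR-133a-3p 0.000439% ± 0.000488. Raw counts per library ran from 37 to 365 for miR-451a and from 7 to 80 for miR-1a-3p, so a share of miR-451a is known far better than one of miR-133a-3p, which had 0 to 28. The only 0 among the 7 was miR-133a-3p in caerulein 100 nM replicate 2, the shallowest library, where a count of 0 allows up to 0.000560% of counts.

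Lists of marker miRNAs place these shares beside the other cell types an acinar preparation can hold. The 7 acinar miRNAs, led by miR-148a-3p and miR-217-5p, made up 38.8% ± 8.71 of counts (SD, n = 15), from 27.0% to 58.1% over libraries. The 2 islet miRNAs, miR-375-3p and miR-7a-5p, made up 11.5% ± 2.49. The 6 smooth muscle and mesenchymal miRNAs, led by miR-143-3p, made up 1.27% ± 0.328, and both arms of endothelial miR-126a 0.594% ± 0.142. The 7 erythrocyte miRNAs made up 0.0151% ± 0.00329, the 5 leukocyte and platelet miRNAs, led by miR-150-5p, 0.00641% ± 0.00211, and the 3 neuronal miRNAs 0.00875% ± 0.00207, nearly all of it miR-9-5p and miR-128-3p. The 8 striated-muscle miRNAs made up 0.00340% ± 0.00136 and the 2 liver miRNAs 0.00106% ± 0.000605. Acinar markers therefore outnumbered red-cell, muscle and liver markers in every library. Of the 12205971 counts on the acinar list, 8853692 were of miR-148a-3p, so the acinar share rests mostly on that miRNA. How far this list is particular to acini was not tested. In bulk RNA, fewer cells of a type and less RNA per cell cannot be told apart.

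**Figure D1:**
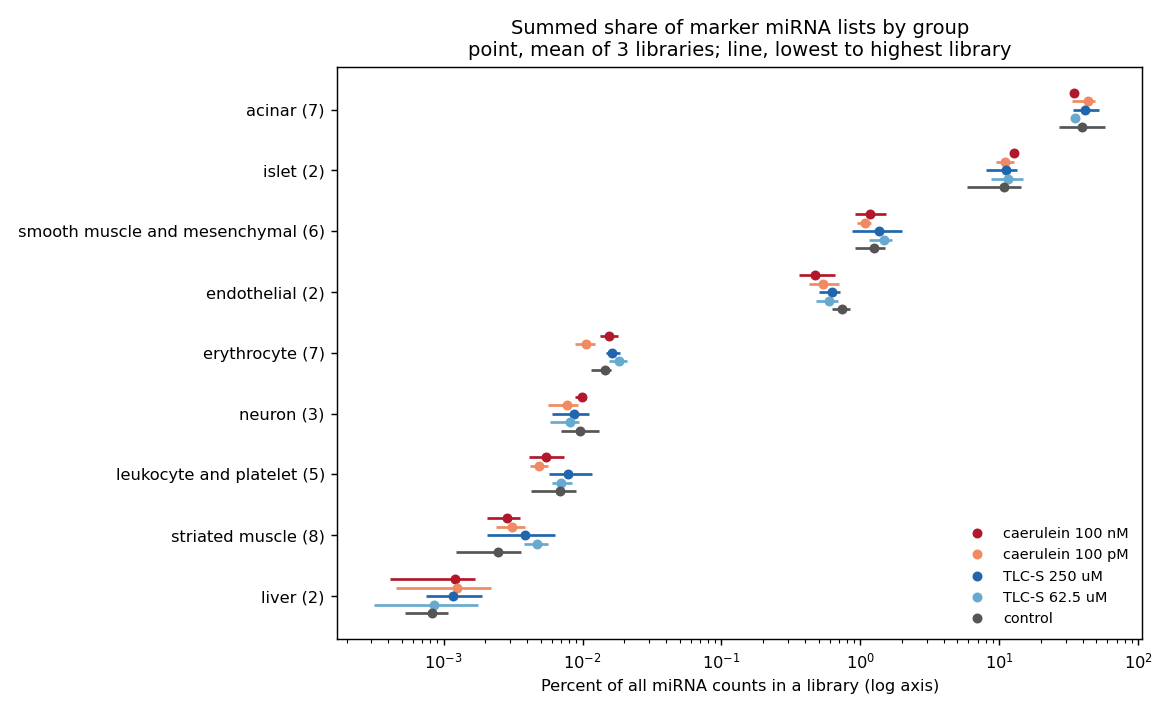
Percent of all miRNA counts held by each marker list on a log axis, with the number of miRNAs in the list in parentheses; points are means of 3 libraries of a group and lines run from the lowest to the highest library. Erythrocyte miRNAs lie between 0.00880% and 0.0210% in all libraries, striated-muscle miRNAs between 0.00123% and 0.00629% and liver miRNAs between 0.000315% and 0.00218%, against at least 27.0% for acinar miRNAs.

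Within the muscle list some rows were in every library and others in none. miR-206-3p, a skeletal-muscle relative of miR-1a, had counts in 15 of 15 libraries (363 in all, from 4 to 75), beside 534 counts of miR-1a-3p and 132 of miR-133a-3p. miR-133b-3p, made from the same locus as miR-206, had 3 counts in all, and miR-133a-5p had 3. The products of myosin heavy chain introns, miR-208a-3p and miR-208b-3p, which mark heart and slow muscle, and miR-499-5p were at 0 in all 15 libraries. Partner arms were scarce or at 0. miR-122-3p, miR-486b-3p and the miR-1a 5p arms, miR-1a-1-5p and miR-1a-2-5p, were at 0 in all libraries, and miR-486a-3p had 11 counts in 4 libraries. miR-144-5p had 21 counts, in 9 libraries, against 239 counts of miR-144-3p. A row at 0 means only that the product was not detectable at this depth.

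The red-cell miRNAs were compared between groups on the scale of TMM-scaled CPM, counts divided by a library size corrected by a trimmed mean, called CPM here. miR-451a was at 101, 64.7 and 68.7 CPM with caerulein 100 nM, at 58.5, 54.2 and 74.7 with caerulein 100 pM, at 65.4, 98.6 and 74.2 with TLC-S 250 uM, at 87.9, 146 and 84.8 with TLC-S 62.5 uM, and at 109, 67.7 and 99.4 CPM in control. Every treated group overlapped control on the TMM scale, and the group means, from 62.5 ± 10.8 at caerulein 100 pM to 106 ± 34.2 at TLC-S 62.5 uM, lay beside 91.9 ± 21.4 in control (SD, n = 3 each). The order of means, from high to low, was TLC-S 62.5 uM, control, TLC-S 250 uM, caerulein 100 nM and caerulein 100 pM, and neighbours in it differed by less than the larger of their SDs. The log2 difference from control was -0.56 (SE 0.30) for caerulein 100 pM (adjusted p = 0.826, edgeR's quasi-likelihood test with Benjamini-Hochberg adjustment over 351 miRNAs). It was -0.22 (SE 0.29) for caerulein 100 nM, -0.21 (SE 0.29) for TLC-S 250 uM and 0.21 (SE 0.29) for TLC-S 62.5 uM. The 95% interval for caerulein 100 pM ran from -1.18 to 0.05, and the other 3 began at -0.83, -0.81 and -0.39 in that order. By library totals the caerulein 100 pM libraries, at 41.6 to 59.3 CPM, all lay below control, at 73.0 to 121 CPM. On that scale the median of all miRNAs shifted by -0.24 in this comparison. The share of all miRNAs without overlap was not computed by library totals, so whether this lack of overlap is particular to miR-451a is not known.

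miR-144-3p, from the same transcript, was scarcer and more scattered. Its raw counts were 29, 4 and 39 with caerulein 100 nM, 18, 6 and 6 with caerulein 100 pM, 12, 2 and 36 with TLC-S 250 uM, 14, 14 and 5 with TLC-S 62.5 uM, and 10, 25 and 19 in control. Levels were 9.52 ± 4.06, 6.97 ± 3.32, 7.92 ± 6.03 and 5.28 ± 1.68 CPM in the treated groups in that order, against 7.76 ± 2.53 CPM in control (SD, n = 3 each), and all groups overlapped. Log2 differences from control ran from -0.53 (SE 0.62) for TLC-S 62.5 uM to 0.32 (SE 0.60) for caerulein 100 nM. The lower ends of the 95% intervals at these doses were -1.80 and -0.92, so at these counts sizeable differences were not detectable.

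The miR-486 rows were near copies of each other. In every library miR-486b-5p had between 0.945 and 1.19 times the count of miR-486a-5p, and their levels had a Spearman rho of 0.975 over the 15 libraries. Their hairpins, Mir486 and Mir3107 (the RefSeq name for mmu-mir-486b), overlap on opposite strands of chromosome 8 in an intron of Ank1. How reads were divided between them is not stated in any source at hand, so the rows are uncertain as separate miRNAs. miR-486a-5p was at 28.3, 30.5 and 42.0 CPM with TLC-S 250 uM, against 13.1, 26.9 and 22.5 CPM in control. miR-486b-5p was at 32.3, 31.8 and 46.7 CPM with TLC-S 250 uM, against 15.5, 27.3 and 25.3 CPM in control. On the TMM scale every TLC-S 250 uM library lay above every control library for both rows, and groups failed to overlap in this direction for 3.7% of all 351 miRNAs tested. By library totals this held for miR-486b-5p alone, because miR-486a-5p was at 30.7 CPM in TLC-S 250 uM replicate 1, against 31.9 CPM in control replicate 2. The log2 difference was 0.71 (SE 0.35) for miR-486b-5p and 0.69 (SE 0.36) for miR-486a-5p, and neither passed (adjusted p = 0.999 for each, edgeR). Control replicate 1 was the lowest library for both rows. With the rows summed into 1, the log2 difference was 0.76 (SE 0.32; adjusted p = 0.995, edgeR).

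The other treated groups overlapped control for both miR-486 rows. miR-486a-5p averaged 28.1 ± 3.06 CPM with caerulein 100 nM, 26.8 ± 8.09 with caerulein 100 pM and 28.2 ± 8.89 with TLC-S 62.5 uM, against 20.8 ± 7.06 CPM in control (SD, n = 3 each). These are log2 differences of 0.44 (SE 0.36), 0.34 (SE 0.37) and 0.42 (SE 0.36). Control was the lowest group mean of the 5 for both rows, and the TLC-S 250 uM mean of miR-486b-5p, 36.9 ± 8.47 CPM, the highest.

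**Figure D2:**
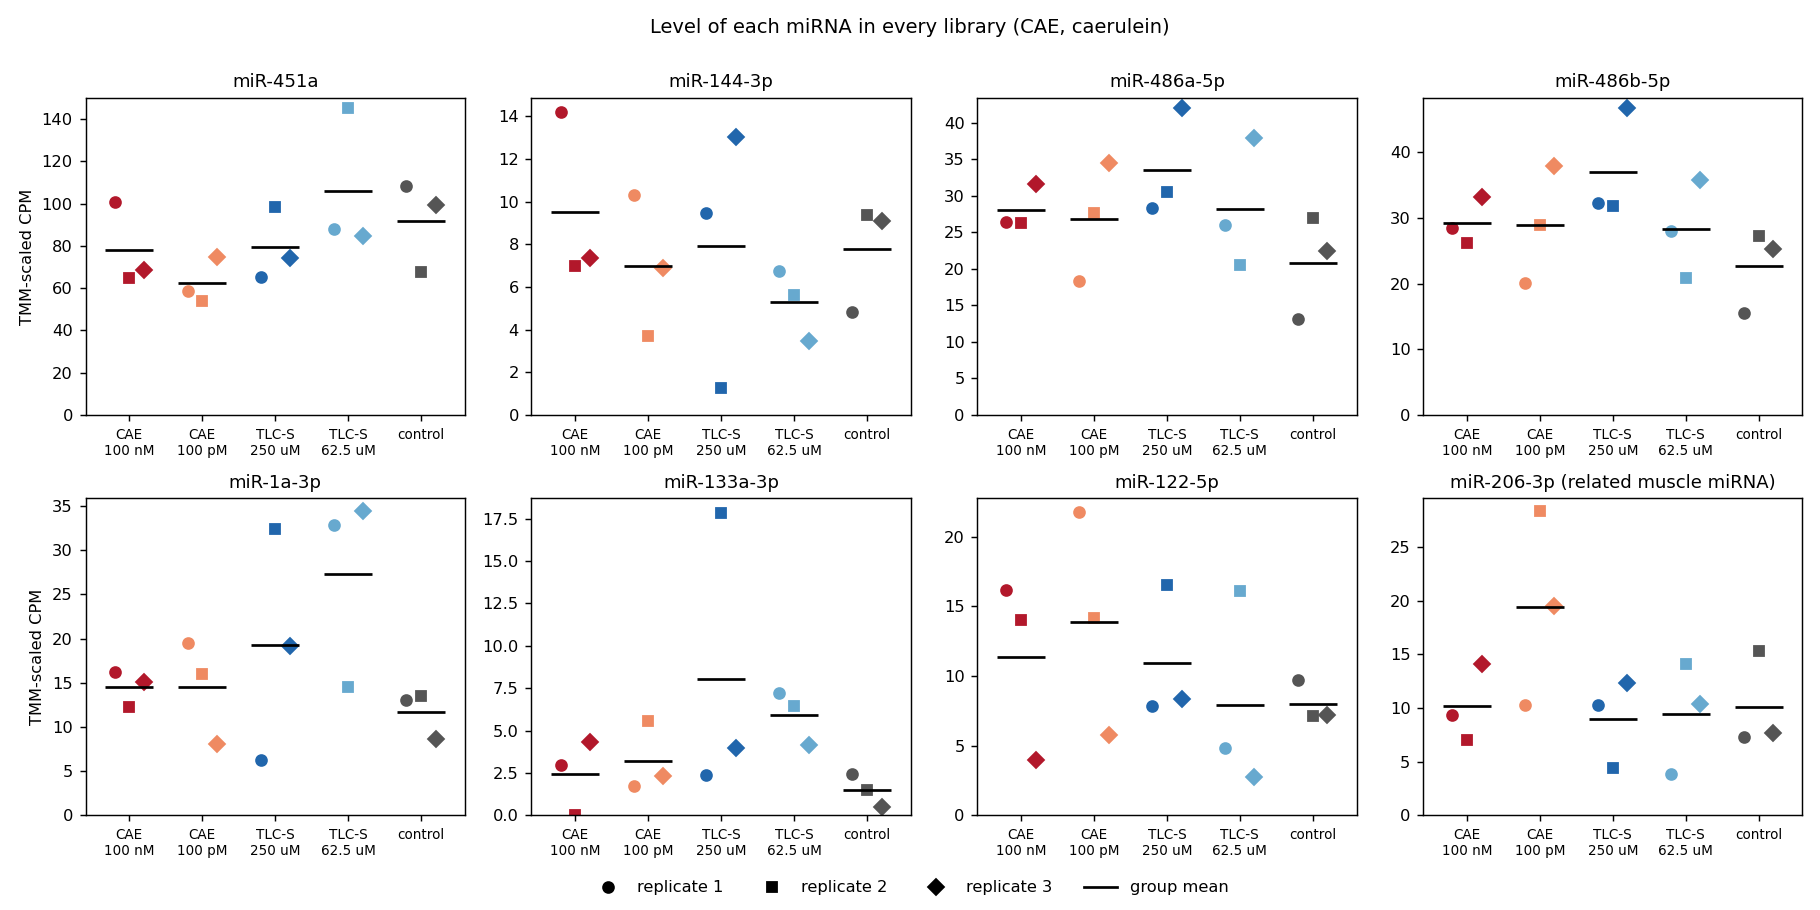
TMM-scaled CPM of the 7 miRNAs and of miR-206-3p in each of 15 libraries; symbols mark replicates, horizontal lines group means, and each panel has its own axis from 0. miR-133a-3p lies at 4.13 to 7.24 CPM with TLC-S 62.5 uM, above all control libraries at 0.478 to 2.42 CPM, and its TLC-S 250 uM mean rests on 1 library at 17.8 CPM. Only TLC-S libraries took miR-133a-3p past the filter for low counts, which uses library totals and not the scale drawn.

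Over libraries the red-cell miRNAs did not follow each other, apart from the near-copy miR-486 rows. Spearman's rho of miR-144-3p was -0.0321 with miR-486a-5p and 0.0143 with miR-486b-5p. Spearman's rho of miR-451a was -0.218 with miR-144-3p and -0.261 with miR-486a-5p over the 15 libraries, which share scaling and depth differences; it is given as a description. Count ratios within a library need no scaling between libraries. miR-451a had 10.8 times the counts of miR-144-3p over all libraries pooled, and the ratio ran from 5.67 in caerulein 100 pM replicate 1 to 77.5 in TLC-S 250 uM replicate 2. In that last library 155 counts of miR-451a stood beside 2 of miR-144-3p, and the exact 95% interval of the ratio, 21.1 to 646, lay above the interval of TLC-S 250 uM replicate 3, 3.98 to 8.36, and of replicate 1 of that group, 3.76 to 13.9. The ratio of miR-451a to miR-486a-5p ran from 1.77 in TLC-S 250 uM replicate 3 to 8.30 in control replicate 1 (exact interval 5.55 to 12.9), with a median of 2.51. TLC-S 62.5 uM replicate 2, which held the highest miR-451a of all libraries, was next at 7.10. These libraries are named because their ratios are the extremes of 15, and the intervals leave out the variation between preparations and libraries.

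**Figure D3:**
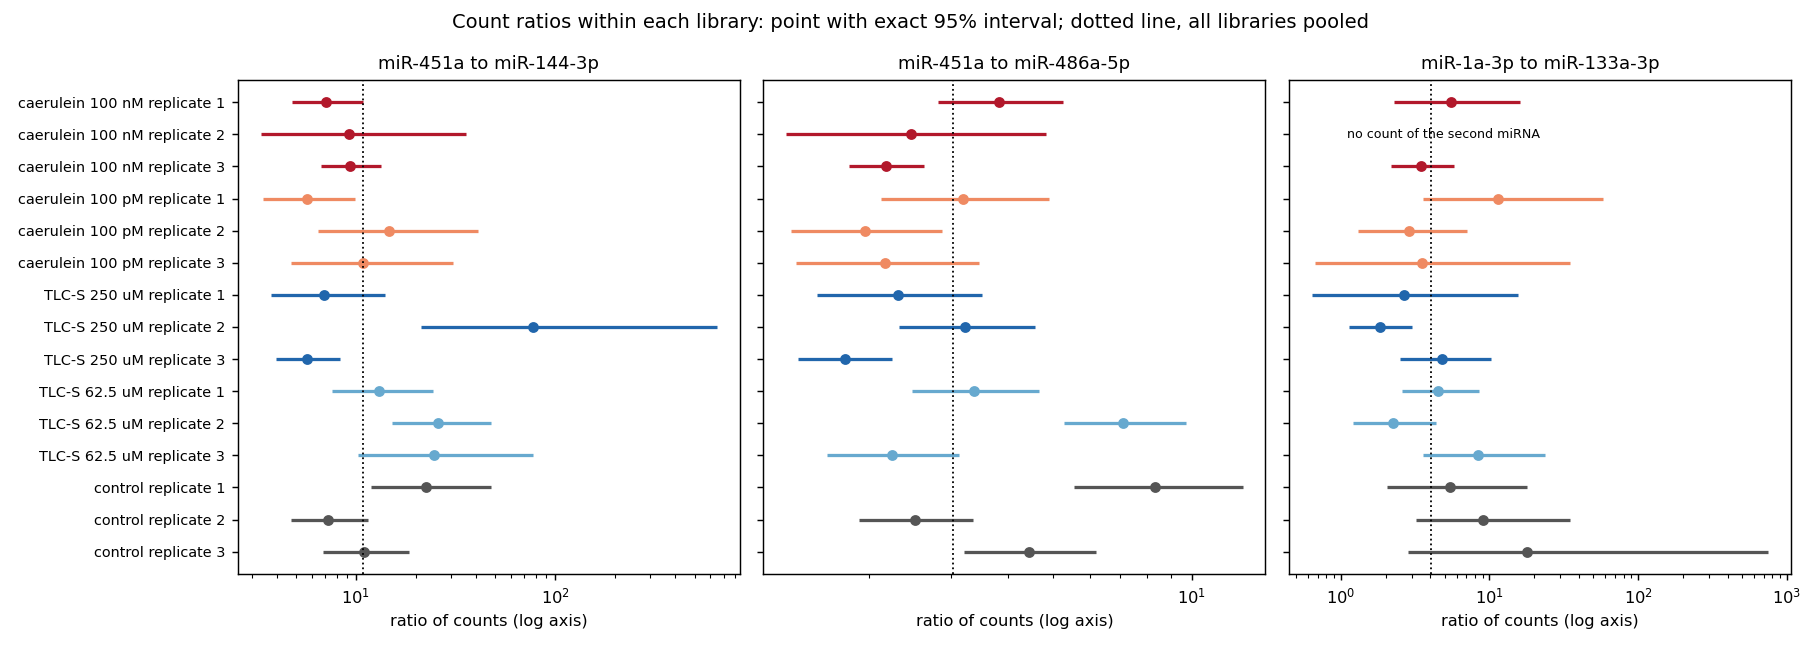
Ratio of the counts of paired miRNAs within each library on log axes, with exact 95% intervals for counting error; the dotted line is the ratio of counts pooled over all libraries. TLC-S 250 uM replicate 2 stands at 77.5 for miR-451a to miR-144-3p against 10.8 pooled, and control replicate 1 at 8.30 for miR-451a to miR-486a-5p against 3.04 pooled.

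miR-1a-3p and miR-133a-3p had positive differences with TLC-S that did not pass the test, while miR-206-3p, the other muscle miRNA tested, had slightly negative ones. The hairpins of miR-1a-3p and miR-133a-3p lie in pairs on chromosome 2, outside annotated genes, and on chromosome 18, in an intron of the same-strand gene Mir133a-1hg and of Mib1 on the other strand. miR-1a-3p was at 32.8, 14.5 and 34.5 CPM with TLC-S 62.5 uM, against 13.1, 13.5 and 8.60 CPM in control. On this scale all 3 TLC-S 62.5 uM libraries lay above all control libraries, replicate 2 by a small margin. By library totals the groups overlapped, since that replicate was at 15.8 CPM, against 16.0 CPM in control replicate 2. With TMM, groups failed to overlap in this direction for 6.27% of the miRNAs tested. The log2 difference was 1.20 (SE 0.47; 95% interval 0.22 to 2.17; adjusted p = 0.489, edgeR). miR-133a-3p had 15, 16 and 6 counts with TLC-S 62.5 uM, against 5, 4 and 1 in control. These are 7.24, 6.43 and 4.13 CPM with TLC-S 62.5 uM, against 0.478 to 2.42 CPM in control, without overlap on either scale. By library totals the share of all miRNAs without overlap was not computed. Only TLC-S libraries took miR-133a-3p past the filter for low counts, so its tests against control cannot support a difference. The log2 difference was 1.99 (SE 0.82; 95% interval 0.31 to 3.68; adjusted p = 0.533, edgeR).

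TLC-S 250 uM gave a wider scatter of the same miRNAs. miR-133a-3p had 3, 28 and 11 counts, or 2.36, 17.8 and 3.98 CPM, with TLC-S 250 uM against 5, 4 and 1 counts in control, and replicate 1 lay below the highest control library. Its log2 difference was 2.40 (SE 0.81; 95% interval 0.72 to 4.07; adjusted p = 0.999, edgeR), the smallest p of the 7 miRNAs in this comparison. Without TLC-S 250 uM replicate 2 it was 1.19. miR-1a-3p was at 6.30, 32.4 and 19.2 CPM with TLC-S 250 uM and spanned nearly the whole range of the 15 libraries. Its log2 difference from control was 0.73 (SE 0.48), and leaving out replicate 2 gave 0.24.

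With caerulein the muscle miRNAs overlapped control. miR-1a-3p averaged 14.5 ± 2.02 CPM with caerulein 100 nM and 14.5 ± 5.88 with caerulein 100 pM, against 11.7 ± 2.70 CPM in control (SD, n = 3 each). miR-133a-3p had 6, 0 and 23 counts with caerulein 100 nM, 3, 9 and 2 with caerulein 100 pM, and 5, 4 and 1 in control; its log2 differences were 1.08 (SE 0.85) and 1.13 (SE 0.90). For all groups miR-133a-3p is near the limit of these libraries. By library totals, the scale of the low-count filter, it entered the test through 3 libraries at or above 5.12 CPM, 2 of TLC-S 62.5 uM and 1 of TLC-S 250 uM. On the TMM scale caerulein 100 pM replicate 2 was also above this value, at 5.54 CPM, but the filter does not use that scale. The presence of miR-133a-3p among the tested miRNAs therefore already depended on the TLC-S groups. Since 3 libraries are what the filter requires, its test cannot support a difference.

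miR-206-3p, which shares the seed of miR-1a-3p in mouse, is a skeletal-muscle miRNA from another locus. It was at 3.86, 14.1 and 10.3 CPM with TLC-S 62.5 uM, against 7.27, 15.3 and 7.65 CPM in control, a log2 difference of -0.10 (SE 0.54). At TLC-S 250 uM the log2 difference was -0.15 (SE 0.54). Its highest group was caerulein 100 pM, with 10.3, 28.3 and 19.5 CPM and 1 library inside the control range; this is a log2 difference of 0.92 that did not pass (SE 0.53; adjusted p = 0.868, edgeR). The count ratio of miR-1a-3p to miR-206-3p ran from 0.412 in caerulein 100 pM replicate 3 to 8.50 in TLC-S 62.5 uM replicate 1 and was 7.29 in TLC-S 250 uM replicate 2. The ratio of miR-1a-3p to miR-133a-3p was 4.05 over all libraries pooled, and Spearman's rho of their levels was 0.621 over 15 libraries, as a description, against -0.182 for miR-1a-3p and miR-206-3p. In TLC-S 250 uM replicate 2, the library with the most miR-133a-3p, the ratio of miR-1a-3p to miR-133a-3p was 1.82 (exact interval 1.13 to 3.00).

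The marker lists of other cell types are given beside these values for TLC-S 62.5 uM, where the acinar, endothelial and neuronal lists lay on the other side of 0. All 7 acinar miRNAs had negative log2 differences from control, with a median of -0.51 and a range from -0.96 to -0.17. Of all 351 miRNAs, 48.7% had a positive one. With edgeR 3 of 7 acinar miRNAs had an unadjusted p under 0.05, where 7.41% of all miRNAs lay. It was 3 of 7 with DESeq2, where 7.69% lay, 2 of 7 with RLE size factors and 1 of 7 with library totals. For RLE and library totals the share of all miRNAs was not computed. The 7 include both arms of miR-216a, miR-217 and miR-148a, so they are not independent. After adjustment 0 of 7 passed. The acinar median stayed negative at -0.33 with library totals, and all 7 remained below 0. The acinar share itself was 35.4% ± 1.48 with TLC-S 62.5 uM, against 39.6% ± 16.4 in control (SD, n = 3 each). It ran from 33.64% to 36.22% with TLC-S 62.5 uM and from 27.01% to 58.06% in control, so the groups overlapped. The medians lay in the other order, at 36.19% with TLC-S 62.5 uM and 33.65% in control. Both arms of endothelial miR-126a had negative log2 differences that did not pass, at -0.41 for the 3p arm and -0.58 for the 5p arm. An unadjusted p under 0.05 was found for 1 of these 2 (edgeR). The negative sign was not particular to TLC-S 62.5 uM. Endothelial medians were -0.81 at caerulein 100 nM, -0.33 at caerulein 100 pM and -0.28 at TLC-S 250 uM. Both neuronal miRNAs tested were also negative, with a median of -0.27, though 1 was positive with library totals. Neuronal medians were also negative at the other doses, at -0.26 for TLC-S 250 uM, -0.11 for caerulein 100 nM and -0.25 for caerulein 100 pM. Of the leukocyte and platelet miRNAs tested, 2 were positive and 2 negative at TLC-S 62.5 uM, with a median of 0.18. The 2 islet miRNAs lay on both sides of 0, with a median of -0.11. At TLC-S 250 uM the acinar median was -0.13, with 1 of 7 positive, or 3 of 7 with library totals. The smooth-muscle and mesenchymal list held 1.47% ± 0.281 of counts with TLC-S 62.5 uM, against 1.25% ± 0.304 in control (SD, n = 3 each). All 6 of its members had positive log2 differences at TLC-S 62.5 uM, with a median of 0.13 and a highest value of 0.31, and 0 of 6 passed. The median over all miRNAs tested was -0.01. The erythrocyte list held 0.0184% ± 0.00274 with TLC-S 62.5 uM, from 0.0155% to 0.0210%, against 0.0144% ± 0.00253 in control, from 0.0115% to 0.0161%. The part of these lists in the level of the muscle miRNAs was not tested.

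Liver miR-122-5p was scattered within the treated groups. It was at 16.2, 14 and 3.96 CPM with caerulein 100 nM, at 21.8, 14.2 and 5.75 with caerulein 100 pM, at 7.87, 16.5 and 8.33 with TLC-S 250 uM, at 4.83, 16.1 and 2.76 with TLC-S 62.5 uM, and at 9.69, 7.10 and 7.17 CPM in control. The 3 control libraries lay close together, while each treated group but TLC-S 250 uM held a library below and a library above all of them. The group means ran, from high to low, as caerulein 100 pM, caerulein 100 nM, TLC-S 250 uM, control and TLC-S 62.5 uM, and neighbours differed by less than the larger of their SDs. Log2 differences from control ran from 0.04 (SE 0.61) for TLC-S 62.5 uM to 0.85 (SE 0.61) for caerulein 100 pM (adjusted p = 0.942, edgeR).

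**Figure D4:**
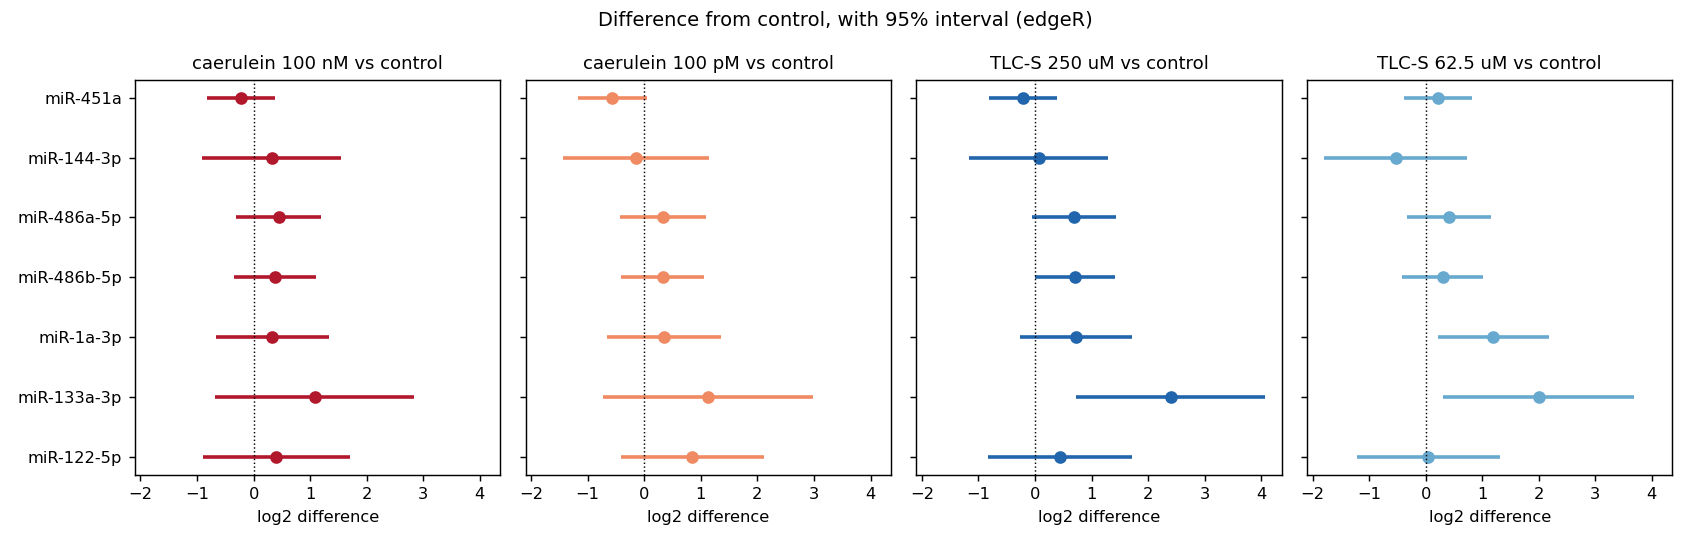
Log2 difference from control of each of the 7 miRNAs with its 95% interval from edgeR, 1 panel per treated group; the dotted line is no difference. Intervals of miR-133a-3p lie above 0 in both TLC-S panels and that of miR-1a-3p at TLC-S 62.5 uM, without passing adjustment over 351 miRNAs. Only TLC-S libraries took miR-133a-3p past the low-count filter, so its intervals cannot support a difference. Intervals of miR-451a are the narrowest.

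None of the 7 miRNAs passed in any comparison. With edgeR 0 of 7 had an adjusted p under 0.05 for caerulein 100 nM, caerulein 100 pM, TLC-S 250 uM or TLC-S 62.5 uM against control, for TLC-S 250 uM against 62.5 uM, for caerulein 100 nM against 100 pM, or in the F test over the 5 groups. DESeq2 also called 0 of 7 in each. Over all 351 miRNAs edgeR called 0% in the first 3 of these comparisons, 0.57% for TLC-S 62.5 uM, 1.14% between the TLC-S doses, 0% between the caerulein doses and 0.855% in the F test. At an unadjusted p under 0.05, edgeR had 0 of 7 with either caerulein dose, where 3.42% and 6.84% of all miRNAs lay at 100 nM and 100 pM. It had 1 of 7 with TLC-S 250 uM, miR-133a-3p, where 1.14% lay, and 2 of 7 with TLC-S 62.5 uM, miR-133a-3p and miR-1a-3p, where 7.41% lay. It had 0 of 7 between the TLC-S doses, between the caerulein doses and in the F test, where 8.83%, 1.71% and 7.41% lay. DESeq2 gave 0, 1, 2 and 2 of 7 against control in the same order, adding miR-451a for caerulein 100 pM and miR-486b-5p for TLC-S 250 uM, where 4.84%, 5.41%, 1.42% and 7.69% of all miRNAs lay. It gave 1 of 7, miR-133a-3p, over the 5 groups, where 8.55% lay. Between the TLC-S doses and between the caerulein doses it gave 0 of 7, where 9.4% and 1.71% lay. Its TLC-S libraries alone took miR-133a-3p into the tests of both programs. Counts at an unadjusted p that include miR-133a-3p are therefore not comparable with the shares of all miRNAs. Log2 differences from control were positive for 6 of 7 miRNAs at caerulein 100 nM, 5 at 100 pM, 6 at TLC-S 250 uM and 6 at 62.5 uM, beside 52.7%, 51.3%, 45% and 48.7% of all miRNAs. Each of these counts includes miR-133a-3p, tested only because of its TLC-S libraries. Each also includes both miR-486 rows, which are near copies and may not be separate miRNAs. Medians over the 7, with the same limits, were 0.38, 0.34, 0.69 and 0.30, beside 0.03, 0.01, -0.03 and -0.01 over all 351. On the TMM scale neither caerulein dose had a miRNA of the 7 without overlap with control, where 6.55% and 10.3% of all miRNAs had none at 100 nM and 100 pM. The 4 comparisons share their control libraries, so values that recur in several of them are not independent.

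The doses of each agent were set against each other directly. Between TLC-S 250 uM and 62.5 uM the log2 differences ran from -0.47 (SE 0.47) for miR-1a-3p to 0.60 (SE 0.62) for miR-144-3p; that of miR-133a-3p was 0.40 with an interval from -1.05 to 1.85. Between caerulein 100 nM and 100 pM they ran from -0.45 (SE 0.63) for miR-122-5p to 0.47 (SE 0.63) for miR-144-3p. By library totals miR-451a was at 69.1 to 105.5 CPM with caerulein 100 nM, against 41.6 to 59.3 CPM with 100 pM, without overlap. The same held for miR-486a-5p, at 27.65 to 33.02 CPM against 18.36 to 27.38 CPM. Both overlapped on the TMM scale. By library totals the median of all miRNAs shifts by 0.29 in this comparison, and the share of all miRNAs without overlap was not computed. In the F test over all groups the smallest adjusted p was 0.671, that of miR-133a-3p, and miR-451a was at 0.844 (edgeR).

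Over libraries, miR-486b-5p, miR-486a-5p and miR-451a were no more variable than a typical miRNA, with coefficients of variation of 26.3%, 26.9% and 28.7% beside a median of 31.5% over the 351 tested. miR-144-3p, miR-1a-3p and miR-122-5p were at 47.2%, 51.4% and 54.2%, and miR-133a-3p, whose counts were lowest, at 102%. Among the 268 other miRNAs averaging at least 10 CPM, the levels most like miR-451a by Spearman's rho over 15 libraries were those of miR-16-5p (0.604), an abundant miRNA of red cells that most tissues express, miR-210-3p (0.593) and miR-381-3p (0.561). miR-1a-3p and miR-133a-3p had the same nearest miRNA, miR-296-3p (0.668 for each), followed by miR-3535. For miR-486a-5p it was miR-6240 (0.754), for miR-122-5p miR-98-5p (0.793) and for miR-144-3p miR-32-5p (0.65). These are the highest of 268 values for each miRNA and are given as a description.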

How the data were processed

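Acinar RNA was extracted by mirVana and its small RNA read on an Illumina sequencer, per the labels' protocols. The submitters' processing notes name cutadapt, Bowtie, GRCm38 and mm10; tool versions and the counter are not given in the sources used. Values per mature miRNA are the authors' estimated counts (expected counts), whole numbers within 0.5 of the sum over precursors in the deposited precursor table, also in estimated counts. There, counts of miR-1a-3p and miR-133a-3p were divided equally between 2 hairpins each. The authors' deposited RPM matched the scaled precursor counts within 0.0313 and was used only for that check.

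The fit used edgeR 4.0.16 under R 4.3.3 on all 15 libraries, with a mean per group, TMM scaling, and filterByExpr at a minimum count of 10 and total of 15, followed by the quasi-likelihood F test (glmQLFit, glmQLFTest). This kept 351 miRNAs, all 7 described here among them; p-values were adjusted by Benjamini-Hochberg with a threshold of 0.05. SEs were derived from the F statistic. Shares and ratios have exact (Clopper-Pearson) 95% intervals; the limit for a count of 0 is 3 counts. The model was tested on simulated counts. The miRNAs and marker lists were chosen with earlier results of these data known. Named miRNAs are the 7, their other arms, leading list members and, for each of the 7, the 3 highest in rank correlation, of which the text gives some. Alternatives were RLE size factors, library totals, no filter, DESeq2 1.42.0, a replicate block, the summed miR-486 rows, a fit on only the 2 groups compared, and omission of each library in turn. Sequences are from RefSeq and positions from GENCODE M21, both on GRCm38. Figures were drawn with matplotlib 3.10.9 under Python 3.11.15.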

Additional observations from a re-analysis of the deposited data

How the results depend on the processing

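None of the 7 miRNAs passed an adjusted p of 0.05 in any of the 1067 values recomputed under the alternatives. The adjusted p ranged from 0.261 to 0.761 for miR-1a-3p and from 0.277 to 0.915 for miR-133a-3p at TLC-S 62.5 uM, and from 0.628 to 1.00 for miR-133a-3p at TLC-S 250 uM. Fitted on 2 groups alone, miR-133a-3p fell below the low-count filter in 4 comparisons and has no value there. Direction reversed in 36 of the values, over 13 of 49 results, whose log2 difference was at most 0.60. The 49 include the F tests over the 5 groups, which have no direction and could not reverse. Library totals in place of TMM shifted the median of all miRNAs by -0.24 for caerulein 100 pM and 0.29 between the caerulein doses, and by less than 0.1 elsewhere; differences smaller than these carry no direction.

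Outside single libraries, reversals were these. With the replicate block miR-144-3p was -0.0802 for TLC-S 250 uM and miR-122-5p was -0.17 for TLC-S 62.5 uM. For caerulein 100 nM against 100 pM the block gave 0.0167 for miR-1a-3p and 0.31 for miR-133a-3p. There miR-1a-3p was also 0.25 with library totals, 0.0174 without the filter and 0.024 with the 2 groups alone, and miR-133a-3p was 0.26 with library totals. The cause was not tested.

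Leaving out each library gave these ranges where direction reversed. Against control, miR-144-3p ran from -0.090 to 0.53 for caerulein 100 nM, from -0.58 to 0.12 for caerulein 100 pM and from -0.63 to 0.59 for TLC-S 250 uM. miR-122-5p ran from -0.16 to 0.93 for caerulein 100 nM and from -1.04 to 0.36 for TLC-S 62.5 uM, and miR-451a from -0.086 to 0.37 for TLC-S 62.5 uM. Between the TLC-S doses miR-144-3p ran from -0.075 to 1.09 and miR-133a-3p from -0.83 to 0.85. Between the caerulein doses the ranges were -0.13 to 0.30 for miR-486a-5p, -0.17 to 0.28 for miR-486b-5p, -0.25 to 0.22 for miR-1a-3p, -0.64 to 0.76 for miR-133a-3p and -0.97 to 0.10 for miR-122-5p.

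Counts of all miRNAs called, none of them among the 7, moved as follows. For caerulein 100 nM the count was 0 with edgeR and 1 with DESeq2. For TLC-S 62.5 uM it was 2, and 1 with library totals, 5 without the filter, 5 with the replicate block, 0 with the 2 groups alone, 4 with DESeq2 and 1 to 3 without single libraries. Between the TLC-S doses it was 4, and 2 with RLE, 2 with the miR-486 rows summed and 1 to 4 without single libraries. Over the 5 groups it was 3, and 10 without the filter, 6 with the replicate block, 7 with DESeq2 and 1 to 4 without single libraries. Same-numbered libraries correlated over 0.1 in 15 of 30 pairs between groups and in no comparison in all 3 pairs, against 7 of 60 pairs with different numbers; 12 of 15 libraries were closest to their own number. The numbers follow accession order and coincide with runs of codes in the sample titles, whose meaning the labels do not state, so the pairing is a hint from the data and not from the design.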
